A study of Mus musculus with 24 samples.

Results

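Whole mouse embryos at embryonic day 8.5 (E8.5) lacking Cmtr2 were compared with wild-type embryos across all measured genes. The 8 libraries, 4 Cmtr2 constitutive knockout (KO, Cmtr2-/-) and 4 wild-type littermate control (WT) embryo libraries, are those whose titles give this stage, out of 24 libraries in the series. The other 16 are KO and WT embryos and yolk sacs at E9.5, of which the 4 KO and 4 WT embryo libraries are used below. Per the series' own description, the KO embryos still looked like their WT littermates at E8.5 and were smaller a day later, so the comparison asks which transcripts differ before growth does. The E8.5 embryos came from 2 litters. Which litter gave which library, and which part of the gene the allele removes, are not stated by the labels. The KO is present in every cell, so these bulk values cannot separate fewer cells of a type from less RNA per cell.

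CMTR2 is an enzyme of the mRNA cap. The cap is the methylated guanosine added to the 5′ end of each RNA polymerase II transcript, and CMTR1 and CMTR2 methylate the ribose of the first and the second transcribed nucleotide, giving the structures called cap1 and cap2. At E8.5 the mouse embryo is forming its neural tube, heart, somites and first red cells, which circulate from the yolk sac. The tumour suppressor p53 is a transcription factor that arrests or kills stressed cells, and its target genes are a known readout of stress in early embryos.

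Because CMTR2 acts on the second nucleotide of a transcript, the annotated start regions of the genes that carry the results below are shown, 30 bases each from RefSeq (build GRCm38.p6), 5′ to 3′ on the gene's strand, with the first 2 transcribed bases in capitals. Ahi1 has a further RefSeq start that is not shown (chr10:21040820, plus strand, first bases GT). A gene may use other starts in the embryo. The first 2 bases were also tabulated for risen, fallen and all tested nuclear protein-coding genes, but only 79.1 percent of all those tested had a RefSeq start, too few for the comparison, which is void and not reported. The fallen genes come first.
Cmtr2 (chr8:110217940-110217969, plus strand): gaggagacgccacccccggaAGctgttccc
Ahi1 (chr10:20952527-20952556, plus strand): cgtggccgtggtccggccggGAtctcccgt
Tia1 (chr6:86404199-86404228, plus strand): aagcctaaacccggctgccaGGagggtgag
Cwc27 (chr13:104816944-104816973, minus strand): acagggaagtcccccctcccGGggttagcg
Dus4l (chr12:31654817-31654846, minus strand): ctccaagtgacgcagaatcaAGgcgccgcc
Caprin2 (chr6:148896228-148896257, minus strand): accggaaataggcgggatttGGgcgtggtc
The risen genes follow.
Cox6b2 (chr7:4753085-4753114, minus strand): agacagctcctattggctggGActccctgg
Jag2 (chr12:112929486-112929515, minus strand): cggcggggccgcgggcggggTCgaggcggc
Parl (chr16:20302353-20302382, minus strand): gatttctaggccggggttagAGaggtcggg
Pex6 (chr17:46711456-46711485, plus strand): cgccccctatttccggaagtGGagtggttt

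Levels are given as scaled FPKM, the deposited FPKM (fragments normalised to transcript length and library depth) brought to a common scale. Depth, recovered from the FPKM steps and rounded to 6 digits, was 17025000 to 23377000 fragments per library. Libraries were grouped by title: the genotype tag in the labels is opposite to the title throughout, and Cmtr2 was low in the 4 libraries titled KO and high in the 4 titled WT. Pearson correlations between libraries of a genotype, across genes, were 0.948 to 0.978. The first principal component (39.5 percent of the variance) held WT replicates 1 and 2 at one end and KO replicates 3 and 4 at the other. Deviations from the genotype mean correlated across genes, KO library with WT library, at 0.0649 to 0.570 within replicates 1 and 2 or within 3 and 4, and at -0.494 to -0.0166 between those pairs. Values are therefore also given for each pair of numbers where they differ. The split was chosen from these same data. A term for it in a fit lowers the residual spread, so calls made with that term are not independent evidence. KO replicates 1 and 4 and WT replicate 2 expressed Y-linked genes and the others did not beyond a low level. Markers of the neural tube (Sox2), heart (Myl7), tailbud (T) and red cells (Hbb-bh1) were present in all 8 libraries. Nothing in the labels says whether a library is 1 embryo or several, so the p-values speak of the spread among libraries, which may be technical.

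Cmtr2 (ENSMUSG00000046441, GRCm38 chromosome 8, 110215665 to 110224486) had 0.776, 0.862, 0.689 and 0.489 scaled FPKM in KO replicates 1 to 4, against 6.46, 6.41, 6.15 and 5.6 in WT replicates 1 to 4. The KO mean was 11.4 percent of the WT mean. The exact two-sided permutation p was 0.0286, the smallest that 4 against 4 libraries allow. These values rest on 19 to 32 fragments in KO libraries, against 221 to 327 in WT libraries. Cmtr1 averaged 1.20 ± 0.159 in KO and 1.02 ± 0.383 in WT embryos (SD, n = 4 each; limma adjusted p = 0.656).

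Of 54532 gene IDs, 13058 passed the filter (FPKM of at least 1 in at least 4 libraries), and limma called 125 of them at an adjusted p under 0.05, which is 0.957 percent. Of these, 69 rose (0.528 percent of the genes tested) and 56 fell (0.429 percent), and 42 and 41 changed by at least 2-fold. The split was 71 risen and 99 fallen with FPKM as deposited, and 33 risen and 108 fallen after rescaling to TPM, which put the median of all genes at -0.11, against 0.01 in the scaled values. At an unadjusted p under 0.05 there were 3237 genes (24.8 percent). In all 125 called genes the 4 KO and 4 WT values did not overlap, as was the case for 15.7 percent of all genes tested. The calls are thin at this number of embryos: 25 of the 125 were called whichever library was left out (17 risen and 8 fallen), and 46 in none of the 8 such runs. The total called was 30 without KO replicate 4 and 35 without WT replicate 1, the lowest counts, and 76 without WT replicate 3, the highest.

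**Figure D1:**
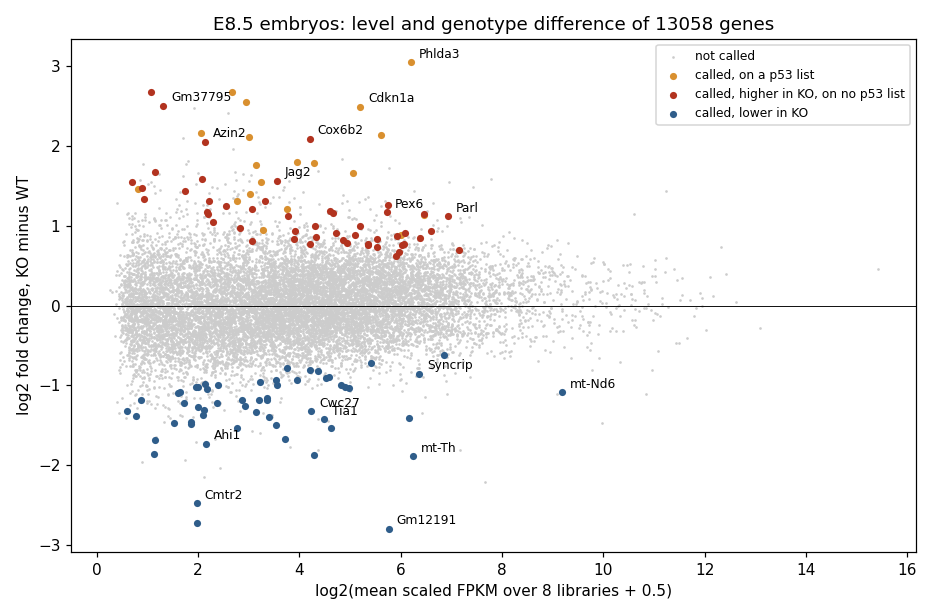
Level and genotype difference of the 13058 genes tested at E8.5. Each point is a gene, the x axis is log2 of its mean scaled FPKM plus 0.5 and the y axis its log2 fold change (KO minus WT). Orange points are called genes on a p53 list, red points other risen genes and blue points fallen genes. Phlda3 (3.05) lies at the top and Gm12191 (-2.79) at the bottom.

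The list with the most risen members was that of p53 targets. Of its 35 genes it had 33 tested members, of which 13 rose, 0 fell and 20 were not called (median log2 fold change 0.75, against 0.01 over all genes). The largest changes were those of Phlda3, an inhibitor of Akt signalling, Ddit4l, an inhibitor of mTORC1, Eda2r, a receptor of the TNF receptor superfamily, and Cdkn1a, which encodes the cell cycle inhibitor p21. Their log2 fold changes were 3.05, 2.68, 2.55 and 2.49 (SE 0.20 to 0.24, limma adjusted p up to 0.000304). A second list of 30 further p53-responsive genes had 22 tested members, of which 7 rose and 0 fell (median 0.58). Tnfrsf10b is on both lists and counted in each, so 19 genes rose on either list. Over all genes tested 0.528 percent rose. The first list was already known to rise in these samples, and both lists were chosen with earlier results of these data known. Neither count is therefore independent evidence. Taken by pairs of numbers, the p53 target median was 0.74 (replicates 1 and 2) and 0.73 (replicates 3 and 4).

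The further p53-responsive genes that rose do varied work. Slc19a2, which encodes a thiamine transporter, had 16.5, 11.9, 14.5 and 7.88 scaled FPKM in KO replicates 1 to 4, against 2.24, 2.18, 2.12 and 3.38 in WT replicates 1 to 4 (log2 fold change 2.12, SE 0.25, limma adjusted p = 0.00313). KO replicate 4 was the lowest of the KO libraries and still above every WT library. Zfp365, a zinc finger gene linked to genome stability, had 9.5, 6.79, 5.31 and 3.96 in KO, against 1.49, 1.02, 0.725 and 0.767 in WT replicates (2.16, SE 0.28). Ak1, an adenylate kinase that balances ATP, ADP and AMP, had 57.1, 58.9, 30.2 and 55.6 in KO, against 19, 15.6, 12.4 and 14 in WT replicates (1.67, SE 0.23). The others were Tnfrsf10b, the mouse TRAIL receptor (1.54), Tap1, a peptide transporter of antigen presentation (1.47), Cpt1c, a neuronal carnitine palmitoyltransferase (1.31), and Sulf2, a heparan sulfate endosulfatase (1.14). Slc19a2, Zfp365 and Tnfrsf10b kept their call whichever library was left out. Ak1 lost it without KO replicate 4 (adjusted p = 0.0504). Sulf2 and Cpt1c kept theirs without KO replicate 3 and 1 WT library (replicate 2 for Sulf2, replicate 1 for Cpt1c) and Tap1 without WT replicate 4, and in the other runs adjusted p reached 0.0839, 0.0788 and 0.0914.

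Among the genes on neither p53 list, one risen transcript adjoins a p53-linked microRNA. Gm37795 (GRCm38 chromosome 4, 150068539 to 150070997, plus strand, no assigned function) overlaps the Mir34a hairpin on the same strand. miR-34a is a microRNA known to be induced by p53 and to repress cell cycle genes. Its mature sequence is shown with the seed, bases 2 to 8, in capitals (RefSeq, GRCm38.p6, chr4:150068473-150068494).
mmu-miR-34a-5p: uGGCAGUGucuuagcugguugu
Gm37795 had 4.22, 3.27, 4.13 and 3.35 scaled FPKM in KO replicates 1 to 4, against 0.258, 0.227, 0.242 and 0.249 in WT replicates 1 to 4 (log2 fold change 2.50, SE 0.21, limma adjusted p = 0.000304). The groups were far apart and each was tight, and the call held whichever library was left out. Mir34a itself was listed at 0 in every library, and the mature microRNA is not measured by these libraries. Gm37795 was singled out after its values were seen.

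Of the 69 risen genes, 50 were on neither p53 list, and 7 of these kept their call in all 8 runs that left out 1 library: Cox6b2, Azin2, Jag2, Inka2, Pex6, Parl and Gm37795. Cox6b2, the testis isoform of a cytochrome c oxidase subunit, had 30.7, 34.7, 23.6 and 28.4 scaled FPKM in KO replicates 1 to 4, against 7.42, 5.37, 4.70 and 9.05 in WT replicates 1 to 4. Its log2 fold change was 2.09 (SE 0.22, limma adjusted p = 0.00122). Azin2, a regulator of polyamine synthesis that counters antizyme, had 7.28, 7.89, 4.85 and 6.57 in KO, against 1.39, 1.28, 1.17 and 0.985 in WT replicates (2.05, SE 0.21, limma adjusted p = 0.00122). For both genes the lowest KO library, replicate 3, was over 2-fold above the highest WT library. Jag2, which encodes a ligand of Notch receptors, had 18.9, 16.2, 17.9 and 14.9 in KO, against 5.74, 3.89, 5.71 and 6.60 in WT replicates (1.56, SE 0.19, limma adjusted p = 0.00404). Inka2, an inhibitor of the kinase Pak4, had 3.11, 3.38, 2.71 and 2.32 in KO, against 0.638, 0.367, 0.577 and 0.660 in WT replicates (1.67, SE 0.23, limma adjusted p = 0.00741).

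**Figure D2:**
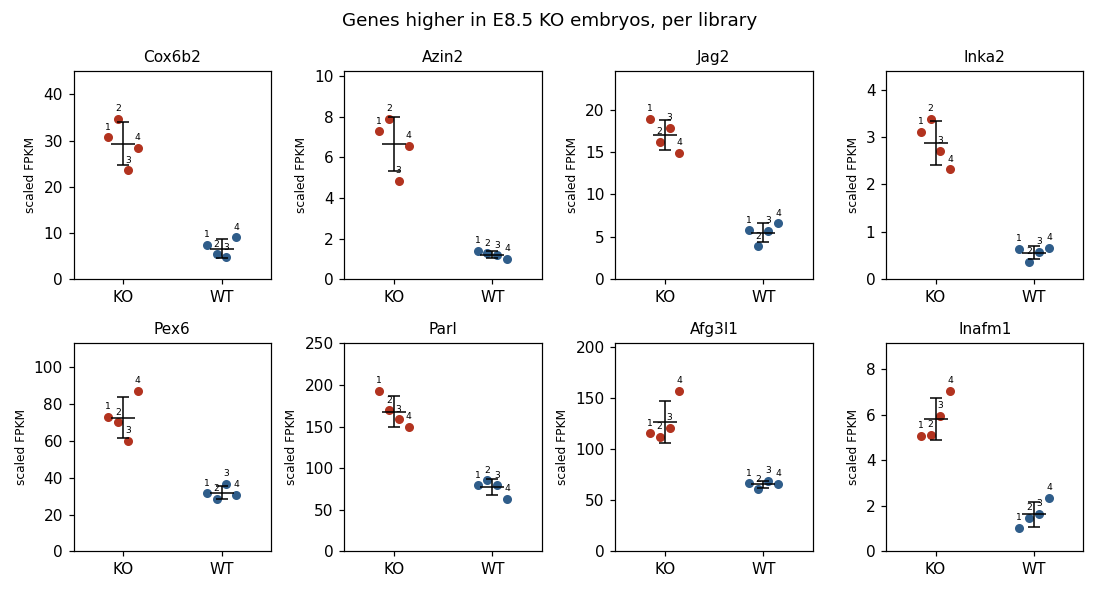
Scaled FPKM of 8 risen genes on no p53 list in each KO (left, red) and WT (right, blue) library. Digits are replicate numbers, and bars are the mean and SD of 4 libraries. In every panel all 4 KO values lie above all 4 WT values, as for Jag2, where the lowest KO value is 14.9 and the highest WT value 6.60.

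Several called nuclear genes, picked out by role after the calls were seen and so not counted as a group, act in mitochondria or peroxisomes, and they went both ways. Parl, a rhomboid protease of the inner mitochondrial membrane, had 193, 169.7, 159 and 149.9 scaled FPKM in KO replicates 1 to 4, against 79.6, 85.6, 79.4 and 63.5 in WT replicates 1 to 4 (log2 fold change 1.12, SE 0.14, limma adjusted p = 0.00566). Pex6, an ATPase that recycles the peroxisomal import receptor, had 73.2, 70.2, 60.2 and 87.1 in KO, against 31.5, 28.6, 36.7 and 30.9 in WT replicates (1.17, SE 0.15, limma adjusted p = 0.00608). Afg3l1, a subunit of a mitochondrial protease in mouse, had 115, 112, 121 and 157 in KO, against 66.7, 60.7, 69.1 and 66.1 in WT replicates (0.93, SE 0.14). It lost its call without WT replicate 1 or WT replicate 2 (adjusted p up to 0.0611). Smaller or less secure rises were those of Acaa1a, a peroxisomal thiolase (1.15), Gcdh, which breaks down lysine and tryptophan (0.73), and Ckmt1, a mitochondrial creatine kinase (1.34). Among those that fell were Msto1, which acts in mitochondrial distribution (-0.99), Guf1, a mitochondrial elongation factor (-0.93), and Chchd3, a scaffold of the inner membrane folds (-0.61). Gcdh, Acaa1a, Guf1 and Chchd3 were called in none of the runs that left out 1 library, and Ckmt1 and Msto1 in 1.

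Of 70 tested nuclear-encoded respiratory chain genes, Cox6b2 alone was called, against 0.528 percent of all genes risen. Of the 70, 58 were above 0, and the median was 0.30 (0.11 for replicates 1 and 2, 0.44 for replicates 3 and 4), against 0.01 over all genes. At an unadjusted p under 0.05, which 24.8 percent of all genes passed in either direction, 24 were higher and 0 lower. With the pair of replicate numbers as a term 11 rose, against 7.18 percent of all genes, and 0 fell. At E9.5 16 of 69 tested rose, against 7.35 percent of all genes, and 1 fell. Of 79 cytosolic ribosomal protein genes only Rps10 rose (25.3 ± 3.14 in KO, 13.8 ± 1.95 in WT embryos, SD, n = 4 each; log2 fold change 0.86, SE 0.16, limma adjusted p = 0.0404). Rps10 lost its call on leaving out any single library, with FPKM as deposited or after rescaling to TPM (adjusted p up to 0.123 over the 8 runs), and genes of this family have near-identical processed copies that can share reads. The ribosomal median was 0.18, with -0.07 for replicates 1 and 2 and 0.42 for replicates 3 and 4.

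Some called genes encode cell surface or secreted proteins, again picked out after the calls were seen. Those that rose include, besides Jag2, Serpine2, a secreted inhibitor of serine proteases (33.4 ± 10.2 in KO, 14.2 ± 2.88 in WT embryos, SD, n = 4 each; log2 fold change 1.18), St14, the membrane protease matriptase (34.6 ± 9.21 and 15.3 ± 4.29; 1.16), Igdcc4, an immunoglobulin superfamily receptor (4.40 ± 1.46 and 1.27 ± 0.214; 1.43) and Scarf2, a scavenger receptor (11.3 ± 2.29 and 4.57 ± 0.666; 1.20). Rhbdf2 and Rhbdf1, the iRhom proteins that help the protease ADAM17 mature, rose by 1.24 and 0.77, the semaphorin gene Sema3b by 0.97 and the cytokine receptor gene Il3ra by 0.80. Membrane protein genes fell too, among them Prrg1, a transmembrane Gla protein (-1.39), and Tmem47 (-0.81). Of the risen genes named here Jag2 kept its call whichever library was left out, while Serpine2, St14, Igdcc4, Rhbdf1, Sema3b and Il3ra were called in none of the 8 runs, Rhbdf2 only without WT replicate 3 and Scarf2 only without KO replicate 3 or WT replicate 3. Adjusted p reached 0.132 (Rhbdf1, Sema3b and Il3ra).

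St14 also belongs to a list of gut endoderm and epithelial genes, and lists for the tissues around the embryo are given beside it. Of 25 tested genes of that list, 1 rose, against 0.528 percent of all genes, and 0 fell. All 25 had a log2 fold change above 0 (median 0.55), with summed levels of 1753 to 3097 scaled FPKM in KO and 1350 to 1570 in WT libraries. At an unadjusted p under 0.05, which 24.8 percent of all genes passed in either direction, 13 were higher and 0 lower. With the pair of replicate numbers as a term 10 rose, against 7.18 percent of all genes, and 0 fell. At E9.5 9 of 25 tested rose, against 7.35 percent of all genes, and 0 fell. Visceral endoderm and yolk sac markers, 27 tested and 0 called, had a median of 0.50 (0.83 in replicates 1 and 2, 0.29 in replicates 3 and 4) and summed to 6727 to 14462 in KO and 2700 to 8389 in WT libraries. Trophoblast markers, 13 tested and 0 called, had a median of 0.88 and summed to 319 to 596 in KO and 202 to 514 in WT libraries. Other such lists lay nearer to 0, also with 0 calls: amnion, allantois and extraembryonic mesoderm (16 tested, median -0.00045) and decidua and parietal endoderm (19 tested, median 0.16, with 0.71 for replicates 1 and 2 and -0.11 for replicates 3 and 4). Apoa1, an apolipoprotein of the visceral endoderm, had 1352, 1557, 1939 and 3768 in KO, against 724, 593, 1320.0 and 1116 in WT replicates (log2 fold change 1.15, limma adjusted p = 0.0899, and 0.00819 once the pairs of numbers enter the fit as a term). Afp, another visceral endoderm gene, had 673, 399, 711 and 455 in KO, against 379, 377, 1007 and 677 in WT replicates, with overlapping groups (-0.04, limma adjusted p = 0.948). Whether different amounts of these tissues in the samples play a part in the risen genes was not tested.

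The remaining named rises were of Inafm1, a gene of unknown role (5.79 ± 0.919 in KO, 1.63 ± 0.550 in WT embryos, SD, n = 4 each; log2 fold change 1.59), Btbd19 (13.7 ± 1.37 and 5.30 ± 1.26; 1.31), Dlgap3, a postsynaptic scaffold (6.12 ± 1.65 and 2.17 ± 0.621; 1.31), Scamp5, a secretory carrier protein (75.2 ± 23.1 and 30.8 ± 7.04; 1.26), and Fbxo36, an F-box gene (5.77 ± 0.394 and 2.32 ± 0.648; 1.18). Scamp5 was the most uneven, with 108 in KO replicate 4 and 55.1 to 71.7 in the other KO libraries, against 23.2 to 40.2 in WT libraries. Inafm1 lost its call without KO replicate 4 (adjusted p = 0.0657), Btbd19 without KO replicate 2 or 4 (up to 0.0670), Scamp5 in 6 of the 8 runs (up to 0.0927), Fbxo36 in 7 (up to 0.0914) and Dlgap3 in all 8 (up to 0.119). Sesn2, on the p53 list, was also the 1 called gene of 24 tested genes of the integrated stress response, a pathway that slows translation (23.5 ± 4.45 in KO, 6.39 ± 1.17 in WT embryos; 1.80). Over all genes 0.957 percent were called. Mir343, a microRNA gene inside Ercc2 on the same strand, had 1.42, 6.30, 1.39 and 3.76 in KO and was listed at 0 in all 4 WT libraries, and its call was lost without KO replicate 4 (adjusted p = 0.0738). Reads of the host gene cannot be told apart from it.

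Genes of cilia and centrosomes were among the fallen. Ahi1, a protein of the ciliary transition zone whose human gene is mutated in Joubert syndrome, had 1.85, 1.89, 1.27 and 1.16 scaled FPKM in KO replicates 1 to 4, against 6.61, 9.26, 4.94 and 4.85 in WT replicates 1 to 4. Its log2 fold change was -1.73 (SE 0.25, limma adjusted p = 0.0118), on 46 to 78 fragments in KO and 196 to 484 in WT libraries, and it lost its call without KO replicate 4 (adjusted p = 0.0574). Rpgrip1l, another transition zone protein, had 1.21, 2.60, 2.73 and 1.35 in KO, against 6.32, 5.97, 5.31 and 4.94 in WT replicates (-1.36, SE 0.26, limma adjusted p = 0.0372). Rpgrip1l kept its call only without KO replicate 3 (up to 0.111 in the other runs). Outside the fixed list, Invs, inversin of the ciliary base (-1.27), and Cep95, a centrosomal protein (-0.78), also fell, though neither was called once any library was left out. Of 39 tested members of the cilium list 2 fell, against 0.429 percent of all genes, and 0 rose. At an unadjusted p under 0.05, which 24.8 percent of all genes passed in either direction, 11 were lower and 0 higher. In all 26 were below 0 and the median was -0.08 (-0.14 in each pair of numbers). With the pair term 7 fell, against 5.47 percent of all genes, and 0 rose.

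Called genes whose products bind, splice or modify RNA are described next, picked out after the calls were seen and not counted as a group. Tia1, which encodes a splicing regulator and stress granule protein, had 12.3, 15.5, 12.6 and 7.43 scaled FPKM in KO replicates 1 to 4, against 31.3, 34.4, 30.5 and 31.4 in WT replicates 1 to 4 (log2 fold change -1.42, SE 0.21, limma adjusted p = 0.0117). Besides Cmtr2 it was the only nuclear protein-coding gene whose fall was called in all 8 runs that left out 1 library. Cwc27, a cyclophilin of the spliceosome, had 10.6, 12.6, 9.76 and 8.03 in KO, against 21.0, 25.8, 24.9 and 34.4 in WT replicates (-1.32, SE 0.20, limma adjusted p = 0.0126). It missed the threshold without KO replicate 4, at an adjusted p of 0.0503. Dus4l, related to enzymes that make dihydrouridine in tRNA, had 6.56, 8.51, 3.88 and 4.13 in KO, against 17.4, 17.8, 14.7 and 15.6 in WT replicates (-1.49, SE 0.24, limma adjusted p = 0.0197), and lost its call without KO replicate 4, WT replicate 1 or WT replicate 2 (up to 0.0738). Caprin2 had 4.29, 4.52, 4.25 and 2.97 in KO, against 9.56, 10.6, 9.08 and 9.27 in WT replicates (-1.18, SE 0.18), and lost its call without WT replicate 1 or 2 (up to 0.0652). Syncrip, an abundant hnRNP gene, had 58.4 ± 8.80 in KO and 106 ± 12.5 in WT embryos (SD, n = 4 each; -0.85) and kept its call only without WT replicate 3 (up to 0.107). Celf5, a splicing regulator, rose by 1.55 and also kept its call only without WT replicate 3 (up to 0.109). Of 28 tested tRNA modification genes 2 fell, Dus4l and Tstd3, against 0.429 percent of all genes, and 0 rose (median -0.0032). Tstd3 (-1.02) was called in none of the 8 runs. The 36 tested core spliceosome proteins had 0 calls and a median of 0.14.

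**Figure D3:**
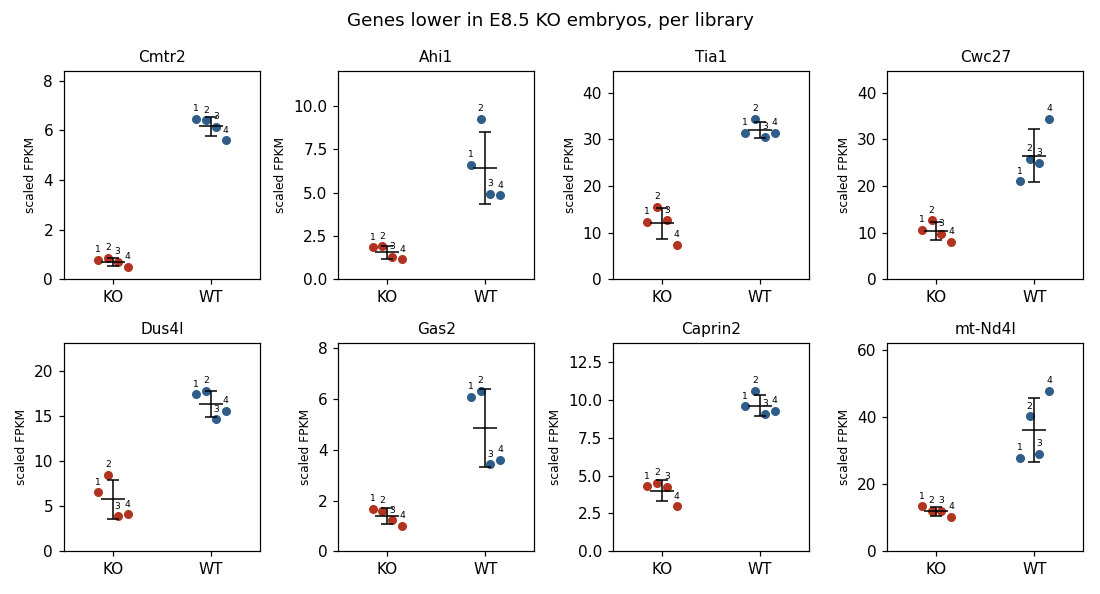
Scaled FPKM of 8 fallen genes in each KO (left, red) and WT (right, blue) library. Digits are replicate numbers, and bars are the mean and SD of 4 libraries. All 4 KO values lie below all 4 WT values in each panel, as for Tia1, where the highest KO value is 15.5 and the lowest WT value 30.5.

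Other fallen genes had varied roles. Gas2, a cytoskeletal gene known from growth-arrested cells, had 1.68, 1.59, 1.22 and 1.01 scaled FPKM in KO, against 6.07, 6.31, 3.43 and 3.60 in WT replicates (log2 fold change -1.48, SE 0.26, limma adjusted p = 0.0289), and the zinc finger gene Zkscan8 had 1.48 ± 0.445 in KO and 4.84 ± 0.687 in WT embryos (SD, n = 4 each; -1.45). Gas2 was called in 2 and Zkscan8 in 3 of the 8 runs (adjusted p up to 0.0914 and 0.0738). Cenpk and Itgb3bp, both subunits of the centromere complex on which kinetochores form, fell by 1.02 and 1.18 on the log2 scale. The Cenpk values were 16.5 to 21.6 in KO and 28.8 to 52.1 in WT libraries, with log2 fold changes of -1.31 for replicates 1 and 2 and -0.72 for replicates 3 and 4. Pot1a, which protects telomere ends, fell by 1.00, Katnal1, a microtubule-severing ATPase, by 1.02, Vps41, a subunit that tethers vesicles to lysosomes, by 1.03, and Cop1, a ubiquitin ligase, by 0.72. Cenpk kept its call only without WT replicate 4 and Itgb3bp only without WT replicate 3, Katnal1 and Cop1 were called in 0 of the 8 runs, Pot1a in 2 and Vps41 in 3 (adjusted p up to 0.149). In the opposite direction Kifc1, a spindle kinesin, rose by 0.76 and Gtse1, a microtubule protein that binds p53, by 0.89, with a call in 0 and 1 of the 8 runs. Airn, the imprinted antisense RNA of the Igf2r locus, had 3.03 ± 0.484 in KO and 6.53 ± 0.907 in WT embryos (-0.99, limma adjusted p = 0.0417). It was the 1 call among 27 tested imprinted genes, against 0.957 percent of all genes called. Airn was called in none of the 8 runs, and without strand its reads cannot be told apart from those of Igf2r (0.38, adjusted p = 0.517). Itgb3bp likewise overlaps Efcab7 (-1.36, limma adjusted p = 0.0684) and Pgm1 (0.12) on the other strand. In all, 31 of the 125 called genes overlap another tested gene on the map. None of them overlaps another called gene, though an overlapped gene can lie just short of a call, as Efcab7 does.

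Near the targeted gene, 1 of 24 other tested genes within 1 Mb of Cmtr2 was called, against 0.957 percent of all genes. Zfp612, a zinc finger gene 123 kb away, had 0.62, 0.956, 0.595 and 0.340 scaled FPKM in KO, against 1.81, 2.16, 1.93 and 2.20 in WT replicates 1 to 4 (log2 fold change -1.18, SE 0.24, limma adjusted p = 0.0485). No run with a library left out called it (adjusted p up to 0.132). The other 23 lay between -0.33 and 0.51.

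Of 28 tested genes of the mitochondrial genome 6 fell, against 0.429 percent of all genes, and 0 rose. Of 13 mitochondrial mRNAs 2 fell, 0 rose and all 13 had a log2 fold change below 0 (median -0.71, with -1.03 for replicates 1 and 2 and -0.42 for replicates 3 and 4). mt-Nd4l, a subunit of complex I, had 13.4, 12.1, 12.1 and 10.3 scaled FPKM in KO, against 27.9, 40.3, 29.0 and 47.7 in WT replicates 1 to 4 (-1.53, SE 0.19, limma adjusted p = 0.00566). mt-Nd6, the complex I subunit encoded on the other strand, had 294, 451, 346 and 388 in KO, against 775, 1052, 582 and 759.7 in WT replicates (-1.08, SE 0.20, limma adjusted p = 0.0365), and kept its call only without WT replicate 3. mt-Co1, a core subunit of complex IV, had 2381 ± 437 in KO and 3356 ± 907 in WT embryos (SD, n = 4 each; -0.47, limma adjusted p = 0.239), and KO replicates 2 and 4 lay above WT replicate 3. The sum of the 13 mRNAs was 7263 to 10457 in KO and 9957 to 18238 in WT libraries, so the groups overlapped. Of 23 tested nuclear genes for mitochondrial transcription and RNA processing 0 were called (median -0.18).

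Of 15 tested mitochondrial tRNAs and rRNAs 4 fell, against 0.429 percent of all genes, and 0 rose, with a median of -1.41. Of the 15, 3 were above 0, among them mt-Tl2, a leucine tRNA, at 113 in KO and 83.5 scaled FPKM in WT embryos on average (log2 fold change 0.43, limma adjusted p = 0.111, and 0.0442 with the pair term). mt-Th, the histidine tRNA, had 39.7, 19.4, 24.9 and 47.2 scaled FPKM in KO, against 82.2, 144, 117 and 129 in WT replicates 1 to 4 (log2 fold change -1.89, SE 0.27, limma adjusted p = 0.0118), and mt-Tl1, the other leucine tRNA, 6.39, 6.30, 4.17 and 6.02 in KO, against 13.0, 24.7, 21.7 and 19.3 in WT replicates (-1.68, SE 0.22). Both kept their call whichever library was left out. mt-Ts2, a serine tRNA, fell by 1.41 on the log2 scale and lost its call without KO replicate 1, 2 or 4 or WT replicate 2 (limma adjusted p up to 0.0574). mt-Ti, the isoleucine tRNA, fell by 2.72 on 3, 0, 1 and 0 fragments in KO replicates 1 to 4, against 6, 8, 8 and 11 in WT replicates 1 to 4, and kept its call only without KO replicate 1 (up to 0.116). With voom on recovered fragments mt-Ti, mt-Tl1 and mt-Ts2 were not called. tRNAs are shorter than the fragments such libraries are made to hold, so these values come from a small and selected share of the molecules. Of 81 tested small nucleolar RNA genes, whose median was 0.17, 1 fell, against 0.429 percent of all genes, and 0 rose. That gene, Snord89, had 5.14 ± 0.223 in KO and 15 ± 5.33 in WT embryos (SD, n = 4 each; -1.40), was called in 2 of the 8 runs and was not called with voom (adjusted p = 0.0846).

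Processed pseudogenes, copies of mRNAs reinserted in the genome, made up 12.5 percent of the fallen genes (7 of 56), against 3.22 percent of all genes tested, and 0 of them rose. Gm12191, whose 348 bases match Rpl30 (a ribosomal protein mRNA) at 99.7 percent, had 13.5, 13.4, 12.7 and 12 scaled FPKM in KO, against 73.0, 102, 77.8 and 125 in WT replicates 1 to 4 (log2 fold change -2.79, SE 0.18, limma adjusted p = 8.43e-05). This was the largest fall of any gene called, while Rpl30 itself had 605 ± 56.4 in KO and 538 ± 75.5 in WT embryos (0.17, limma adjusted p = 0.485). Gm12191 also overlaps Cnot6 on the same strand, which averaged 42.6 in KO and 63.8 in WT embryos (-0.58, limma adjusted p = 0.0952). Whether reads of Cnot6 play a part was not tested. Gm4739, a copy of Hmgb2 (a chromatin protein gene; 99.7 percent), had 7.90 ± 1.85 in KO and 30.4 ± 6.69 in WT embryos (-1.88), with Hmgb2 at -0.21. Gm10221, a copy of Atp5l (an ATP synthase subunit gene; 100 percent), had 3.0 ± 0.559 and 9.64 ± 1.71 (-1.53), with Atp5l at 0.22. These 3 kept their call whichever library was left out. The others were Gm12411, Nudc-ps1, Gm10241 and Gm11263, at -1.47 to -1.04, and they were called in 2, 1, 2 and 0 of the 8 runs.

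The pattern reached beyond the 7 calls. Of 421 tested processed pseudogenes 388 matched a tested protein-coding transcript over at least 80 percent of their length at 95 percent identity or more. For 93 of these (24 percent) the log2 difference between pseudogene and matching gene was lower in all 4 KO than in all 4 WT libraries, and for 9 (2.32 percent) it was higher. Over single genes the groups did not overlap with KO lower for 7.58 percent and with KO higher for 8.09 percent of those tested. Those shares are of levels, not of differences between 2 genes, so the measures are unlike. Pseudogenes that match the same gene are not separate observations. The median pseudogene-minus-gene difference was -0.24. Reads from a copy this similar cannot be assigned with certainty, so a pseudogene level is that of the locus as counted, not shown to be its own transcript. How reads with several matches were counted is not stated by the labels, and whether library preparation or alignment plays a part in the pseudogene and mitochondrial falls was not tested.

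Of 44 lists, 32 had no called member. Since 0.957 percent of all genes were called, a list of this size with no call is near the overall share and shows little about its tissue or process. Among the 32 were heart muscle (27 tested), neural progenitors (28), neural crest (22), somites and segmentation clock (19), tailbud (23), Hox genes (27), endothelium (28), hedgehog pathway (18), and RNA sensing and interferon response (14). Their medians lay between -0.32 (neural crest) and 0.24 (hedgehog pathway). Hypoxia and glycolysis genes had 0 calls of 35 and a median of -0.02 (-0.17 for replicates 1 and 2, 0.28 for replicates 3 and 4). A day later, at E9.5, 28 of 35 tested rose, against 7.35 percent of all genes, and 0 fell (median 0.91). Genes of mitosis had 0 calls of 40 with 30 below 0 (median -0.43, -0.34 and -0.51 in the 2 pairs of numbers). Of these 22 were lower and 0 higher at an unadjusted p under 0.05, which 24.8 percent of all genes passed in either direction. With the pair term 6 of 40 fell, against 5.47 percent of all genes, and 0 rose. At E9.5 13 of 40 fell, against 6.26 percent of all genes, and 0 rose. Mki67, a proliferation marker, had 19.8, 33.6, 44.8 and 22.1 scaled FPKM in KO, against 34, 55.5, 47.3 and 54.8 in WT replicates 1 to 4 (limma adjusted p = 0.133), so the groups overlapped. DNA damage sensing and repair genes had 0 calls of 34 with 28 below 0 (median -0.21). Of the 34, 9 were lower and 1 higher at that unadjusted p. Ifit1 and Isg15, interferon-induced genes, were below the filter, at no more than 0.0638 and 2.09 scaled FPKM in any library.

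**Figure D4:**
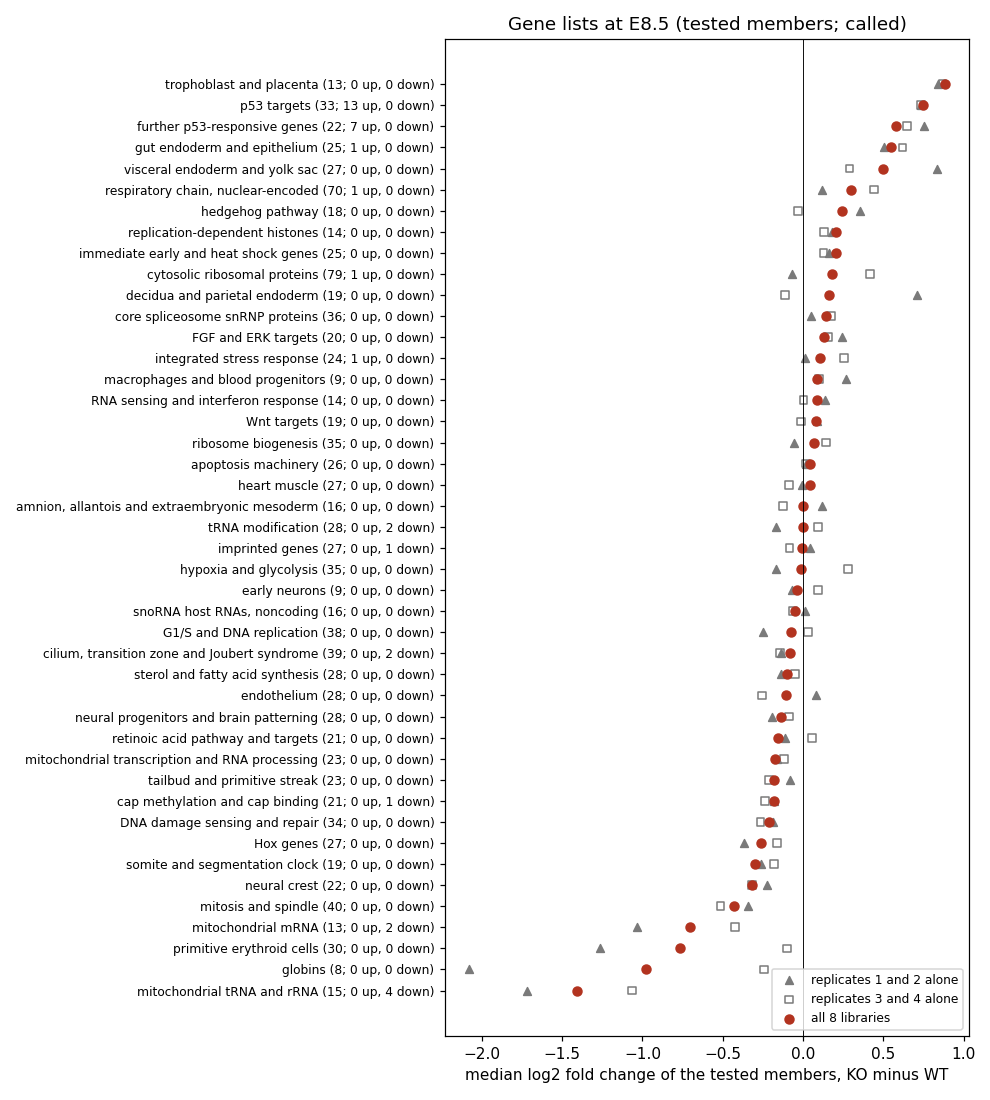
Median log2 fold change (KO minus WT) of the tested members of 44 gene lists, over all 8 libraries (red circles), replicates 1 and 2 alone (grey triangles) and replicates 3 and 4 alone (open squares). The number tested and the calls in each direction stand beside each name. The lists of p53 targets (0.75) and mitochondrial tRNA and rRNA (-1.41) keep their side of 0 in both pairs, while globins range from -2.08 in replicates 1 and 2 to -0.25 in replicates 3 and 4.

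Red cell genes varied widely among the KO libraries. Of 30 tested primitive erythroid genes 0 were called, with a median of -0.77 (-1.26 for replicates 1 and 2, -0.10 for replicates 3 and 4). Hba-x, an embryonic alpha-type globin, had 52.6, 291, 862 and 2203 scaled FPKM in KO, against 971, 1079.7, 1343 and 1222 in WT replicates 1 to 4 (limma adjusted p = 0.307). KO replicate 1 was the lowest of all libraries and KO replicate 4 the highest. The WT libraries all lay between those 2 values.

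Some genes of region and lineage passed the threshold only when the pair of numbers (1 and 2, or 3 and 4) entered the fit as a term, which called 938 risen (7.18 percent) and 714 fallen (5.47 percent) genes. Pax6, a regulator of the eye and neural tube, had 7.98, 6.90, 1.63 and 2.90 scaled FPKM in KO, against 21.6, 21.4, 6.12 and 5.42 in WT replicates 1 to 4. Its log2 fold change of -1.35 had an adjusted p of 0.160 in the plain fit and 0.00332 with the term (limma), since replicates 1 and 2 of both genotypes were higher than 3 and 4. Within each pair of numbers Pax6 was lower in KO (-1.47 and -1.22). Tbx6, a paraxial mesoderm regulator, had 3.30 ± 0.332 in KO and 5.38 ± 0.647 in WT embryos (SD, n = 4 each; -0.63), with an adjusted p of 0.0891 in the plain fit and 0.0420 with the term (limma). Hbb-y, an embryonic beta-type globin, had a log2 fold change of -2.21 (-3.68 for replicates 1 and 2, -0.74 for replicates 3 and 4), with an adjusted p of 0.0862 in the plain fit and 0.0317 with the term (limma). The term follows a split seen in these same libraries, so its adjusted p-values and counts are not independent evidence. The labels do not say that the replicate numbers mark a litter.

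The E9.5 embryo libraries, from other embryos, show which of these differences were also seen a day later. Of the 69 genes risen at E8.5, 66 were tested at E9.5, 64 were higher in KO again and 49 were called as risen (74.2 percent, against 7.35 percent of all genes tested at E9.5). Of the 56 fallen, 48 were tested, 40 were lower again and 25 were called as fallen (52.1 percent, against 6.26 percent). Over all 11595 genes tested at both stages 76.2 percent had the same sign. The fallen genes divided by kind. All 32 nuclear protein-coding ones tested were lower again and 23 of them were called, while of the 16 others tested, mitochondrial and noncoding genes, 8 were lower again and 2 were called as fallen. Among the others mt-Ti was called in the opposite direction (2.40, SE 0.64, limma adjusted p = 0.0386). mt-Nd4l fell again (-0.80, limma adjusted p = 0.0375), and mt-Nd6 was lower without a call (-0.52). Of all 13 mitochondrial mRNAs tested at E9.5, 5 fell, against 6.26 percent of all genes, and 0 rose (median -0.52). Of 17 mitochondrial tRNAs and rRNAs, 0 fell and 3 rose, against 7.35 percent of all genes risen (median 0.56). Tia1 and Ahi1 were again low (-1.45, SE 0.20, and -1.99, SE 0.18), as were Cwc27 (-1.01), Dus4l (-1.04) and Gas2 (-1.08). Jag2 had 0.77 (SE 0.18) at E9.5, Cox6b2 2.32 (SE 0.29) and Parl 1.15 (SE 0.14).

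**Figure D5:**
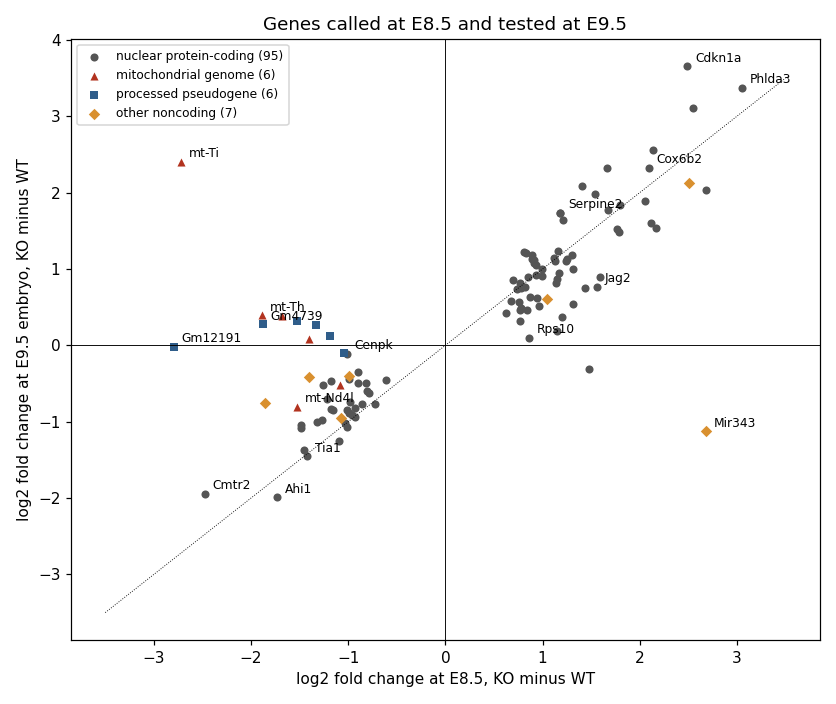
Log2 fold change (KO minus WT) at E8.5 on the x axis and in E9.5 embryos on the y axis for the genes called at E8.5 and tested at both stages. Grey circles are nuclear protein-coding genes, red triangles genes of the mitochondrial genome, blue squares processed pseudogenes and orange diamonds other noncoding genes, and the dotted line marks equal change. Pseudogenes such as Gm12191 (-2.79 and -0.02) and mt-Th (-1.89 and 0.39) sit near 0 or above it at E9.5, while Ahi1 (-1.73 and -1.99) lies close to the line.

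The difference between the stages was tested gene by gene in a joint fit of 16 libraries. Of 11595 genes 6 were called (0.0517 percent), and for all 6 the KO-minus-WT difference was lower at E8.5. They were 3 of the pseudogenes above (Gm12191, Gm10221 and Gm4739), mt-Ti, and 2 genes known to be induced by hypoxia, Bnip3 and Ndufa4l2. Bnip3, a mitochondrial protein of autophagy, had 69.6 ± 6.68 in KO and 95.9 ± 21.1 in WT embryos at E8.5 (SD, n = 4 each; log2 fold change -0.44, limma adjusted p = 0.140) and rose by 1.43 at E9.5, a difference of -1.87 (SE 0.21, limma adjusted p = 0.000732). Ndufa4l2, a hypoxia-induced mitochondrial gene, was at -0.41 (limma adjusted p = 0.426) and rose by 2.74 at E9.5, a difference of -3.15 (SE 0.46, limma adjusted p = 0.00870). The 2 tables were made with different gene lengths (mean transcript length at E8.5, the union of exons at E9.5), so levels were not compared between stages. Within a table the length cancels in KO minus WT, apart from the added 0.5. Whether reads with several matches were counted alike in the 2 tables is not stated by the labels. Its part in the pseudogene difference was not tested.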

How the data were processed

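RNA-seq of whole embryos was analysed from 2 tables, 1 for each stage, that map every column used to a library (0 columns were left unmapped). The values are FPKM deposited by the authors. Per the submitters' processing notes the builds are GRCm38 and mm10 and DESeq2 was used. Not given in the sources used here are the aligner, the counter and how reads with several matches or strand were treated. The libraries, per the labels' protocols, are from total RNA with the NEBNext Ultra RNA kit.

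FPKM was divided by median-of-ratios factors, and genes with FPKM of at least 1 in at least 4 libraries were tested on log2(value + 0.5) with limma 3.58.1 (R 4.3.3, trended variance, Benjamini-Hochberg adjustment, threshold 0.05), so fold changes of low genes are understated. Cmtr2 was tested with an exact permutation test (scipy 1.17.1). Low FPKM values gave whole fragments (within 0.02) for 97.7 to 97.9 percent of values, and voom was run on these as an alternative that called 95 genes. Intervals and tests cover these libraries. Pseudogenes were matched with BLAST 2.17.0. The fits were tested on simulated data with independent libraries. The simulation held no split between pairs of replicate numbers, so it does not speak to the fits under that split. Figures were drawn with matplotlib 3.10.9, and tables handled with numpy 2.4.6 and pandas 2.3.3 under Python 3.11.15.

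Genes were named by rule: Cmtr2 and Cmtr1, the 14 most risen and 14 most fallen called genes outside the p53 lists with a mean of at least 2 scaled FPKM and a proper symbol, the 4 most changed p53 targets, the called members of the other lists (up to 3 per direction), a panel of 30 markers, called genes within 1 Mb of Cmtr2 and up to 4 called genes per direction in the stage comparison. Genes described by role, pseudogenes other than these, Gm37795, Bnip3 and Ndufa4l2 were chosen after their values were seen. The members and lists were chosen with earlier results of these data known. Alternatives were another pseudocount, filter, scaling, trend, weights, the replicate number as a block or term, embryo sex, and leaving out each library.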

Additional observations from a re-analysis of the deposited data

Results flagged for a closer look

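In 7 of 154 groups of 4 libraries checked, 1 library stood far from the other 3, and chance alone gives such a gap in about 1 of 20 groups. Cmtr1 was 0.446 scaled FPKM in WT replicate 4 and 1.15 to 1.24 in the other WT libraries. mt-Tl1 was 4.17 in KO replicate 3 and 6.02 to 6.39 in the other KO libraries, and Ak1 was 30.2 there and 55.6 to 58.9 in the others. WT replicate 4 was high for Slc19a2 (3.38, others 2.12 to 2.24), Tap1 (0.847, others 0.275 to 0.364) and Ifit1 (0.0628, others listed at 0). Isg15 was 2.09 in KO replicate 4 and 0.156 to 0.414 in the other KO libraries.

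For 6 genes the KO-minus-WT difference itself differed between E8.5 and E9.5 embryos in limma's joint fit. The differences on the log2 scale, E8.5 minus E9.5, were -1.87 for Bnip3, -2.77 for Gm12191, -1.85 for Gm10221, -3.15 for Ndufa4l2, -2.15 for Gm4739 and -5.12 for mt-Ti, with adjusted p between 0.000732 and 0.0442. At an unadjusted p under 0.05 there were 572 such genes.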

How the results depend on the processing

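The count of 125 called genes was 111 to 179 under both other pseudocounts, the filter at FPKM 5, protein-coding genes alone, FPKM as deposited, TPM, quantile scaling, no trend and array weights, and 95 with voom. It was 61 without a filter on level, 46 with embryo sex as a covariate, 61 in replicates 1 and 2 alone, 73 in replicates 3 and 4 alone, and 30 to 76 with 1 library left out. Adding replicates 1 and 2 against 3 and 4 as a term gave 1652, and the replicate number as a block gave 1261, which hold all 125. Same-numbered libraries correlated at 0.310, 0.382, 0.333 and 0.0649 in their deviations, and KO replicates 1, 3 and 4 correlated better with another number, so the numbers are not shown to pair the samples. The count of 6 genes that differ between stages was 10 with FPKM as deposited and 4 to 10 with 1 library left out (10 without WT replicate 3). The share of called genes with the same sign at E9.5 was 78.1 to 98.1 percent over these settings. The cause of these shifts was not tested, other than fewer libraries where some were left out. No result changed sign where it was called. Depth limits genes such as mt-Ti, which rest on few fragments.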
